A study of Homo sapiens with 54 samples.

Results

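The genes described here are 42 genes of the G2 phase and of mitosis, measured by total RNA sequencing in 3 human prostate cancer cell lines. They were taken as the rows of the deposited table whose gene column names a listed gene (35 members) or whose Entrez gene ID is that of a listed gene (ANLN, TPX2, NUF2, CDCA8, NUSAP1, ASPM and KIF4A, 7 members), out of 19225 genes and other transcripts. All 42 were found, and all 42 reached at least 1 count per 1000000 reads (CPM) in at least 3 libraries of each line, the filter used for testing. The cells were 22Rv1, a line from a prostate cancer xenograft that relapsed after castration, C4-2, a derivative of LNCaP selected in castrated hosts, and LNCaP itself, grown from a lymph node metastasis and responsive to androgen. Each line received 17-beta-estradiol (E2, 100 nM), the androgen receptor antagonist enzalutamide (Enza, 1 µM), the compound OSU-ERb-12 (OSU, 100 nM), E2 with Enza, OSU with Enza, or the ethanol vehicle, for 12 h. All groups were grown in medium with serum, so the vehicle cells were not free of hormone by design, and each line is 1 established line. There were 3 libraries in each of the 18 groups, which the labels call biological triplicates without naming separate cultures, so the p-values measure the spread between these libraries.

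Cells enter mitosis when cyclin-dependent kinase 1 (CDK1), bound to cyclin A or cyclin B, becomes active, and they leave it when the anaphase-promoting complex destroys those cyclins. Between these points the spindle attaches to the kinetochores, the spindle checkpoint holds back anaphase until every chromosome is attached, and kinesin motors and bundling proteins build the midzone where the cell divides. The transcripts of most of these proteins accumulate in G2 under the transcription factors FOXM1 and B-MYB with the MuvB complex, which binds DNA at cell cycle homology region (CHR) motifs, and under NF-Y, which binds CCAAT boxes. In prostate tumours their level is widely read as a sign of proliferation. In bulk RNA a larger share of cells in G2 or mitosis and more transcript per cell cannot be told apart.

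Decoded, each library held 32819568 to 52417050 reads, of which the 42 members took 166811 to 283310, or 0.449 to 0.559%. One read was worth 0.0204 to 0.0323 CPM, far below the level of any member. One library whose title says C4-2 vehicle is tagged as 22Rv1 in its cell line label. It correlated at 0.998 with the C4-2 libraries and at 0.8496 with 22Rv1, where the other C4-2 libraries lay between 0.8414 and 0.8465, and counts that rest on it are given with and without it. The titles mark the OSU groups with letters whose meaning the labels do not give, so these groups rest on the treatment labels. The androgen receptor target FKBP5 rose with E2 by 2.22 ± 0.05, 1.42 ± 0.05 and 2.56 ± 0.06 on the log2 scale in 22Rv1, C4-2 and LNCaP, and fell with Enza by 0.28, 0.53 and 0.60. KLK3, which encodes prostate-specific antigen, rose with E2 by 1.01, 0.27 and 0.50 and fell with Enza by 0.62, 0.52 and 1.17 in the same lines. TMPRSS2, another target, rose with E2 by 0.62, 0.78 and 1.35, and its change with Enza was -0.04 ± 0.08 in 22Rv1 (limma, adjusted p = 0.86), -1.47 in C4-2 and -1.64 in LNCaP. All 9 luminal prostate markers were over 1 CPM in each line. The 1 basal marker in the table given (of 4 listed) reached at most 1.77 CPM, the 3 fibroblast markers (of 5) summed to 3.08 to 21.8 CPM, and the 1 leukocyte marker (of 5) reached at most 0.471 CPM.

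Of the 42 members, 20 rose with E2 in 22Rv1 and 0 fell, against 27.7% of the 14866 genes tested called in either direction and 17.1% called higher. The rises were small, 0.14 to 0.27 on the log2 scale, and the median over all 42 was 0.13 where that over all genes was 0.03. In LNCaP 14 members rose and 0 fell, by 0.11 to 0.21, against 24.9% of 14251 genes called in either direction and 13.3% called higher, with a median of 0.08 beside -0.01 for all genes. In C4-2 limma and voom weights each called 0 members, against 5.82% of 14027 genes. At an unadjusted p under 0.05 there were 11 members. Here and below, shares of genes called are at the adjusted threshold, and none is given for counts at an unadjusted p. In C4-2 40 of the 42 had a log2 fold change below 0 (median -0.06, beside -0.03 for all genes). All share the same libraries, and the share of all genes below 0 is not given. Without C4-2 vehicle 1, 0 were called and the median was again -0.06. The 9 members called higher in both 22Rv1 and LNCaP were CCNB2, CDC20, UBE2C, BIRC5, CDCA8, NUF2, TPX2, HMMR and ANLN, 45% of those called in 22Rv1 and 64.3% of those called in LNCaP. The overlap over all genes is not given. Whether 9 is more than calls of 20 and 14 among 42 bring by themselves was not tested. The 22Rv1 count was 9 without vehicle library 1 and 13 without E2 library 3, while in LNCaP it lay between 10 and 15 whichever library was left out.

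**Figure D1:**
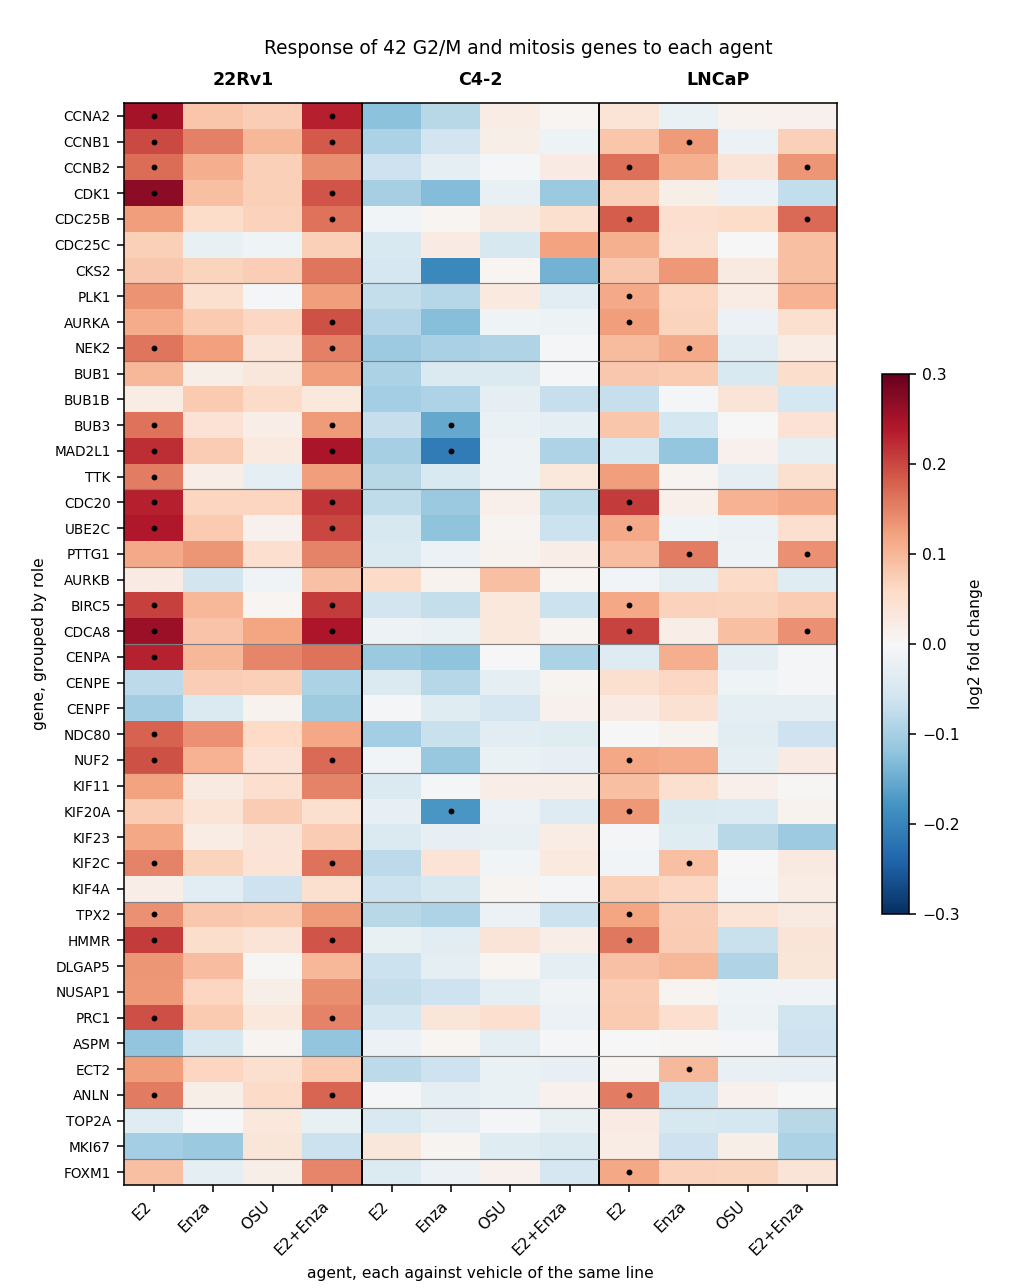
Log2 fold change against vehicle of the 42 members (rows, grouped by role) with E2, Enza, OSU and E2 with Enza (columns) in 22Rv1, C4-2 and LNCaP, 3 libraries per group, with a dot where the adjusted p was under 0.05. The E2 column of 22Rv1 has 20 dots, that of E2 with Enza in 22Rv1 17, the E2 column of LNCaP 14 and the E2 column of C4-2 0.

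Among the genes of the CDK1 and cyclin engine, CDK1, CCNA2, CCNB1 and CCNB2 rose with E2 in 22Rv1. CDK1, the kinase that starts mitosis, had 116, 123 and 123 CPM in the E2 libraries of 22Rv1, against 93.6, 103 and 103 CPM in vehicle libraries. The groups did not overlap, and the log2 fold change of 0.27 ± 0.05 (SE; adjusted p = 0.000279) was the highest of the 42. CCNA2, cyclin A2, had 115, 124 and 118 CPM with E2, against 95.5, 101 and 104 CPM with vehicle, again apart (0.25 ± 0.05, adjusted p = 0.00149). CCNB1, cyclin B1, had 143, 143 and 146 CPM with E2, against 118, 130.0 and 129 CPM with vehicle (0.20 ± 0.05, adjusted p = 0.00418). In these 3 genes 22Rv1 vehicle library 1 was the lowest of its group. In LNCaP the same 3 genes were not called, CDK1 at 0.07 (adjusted p = 0.129) and CCNB1 at 0.08 (adjusted p = 0.0546), while CCNB2, cyclin B2, was 75.7, 76.4 and 77.1 CPM with E2, against 64.9, 72.1 and 67.4 CPM with vehicle (0.16 ± 0.04, adjusted p = 0.00307). CDC25B, a phosphatase that activates CDK1, also rose in LNCaP, with 88.7, 91.5 and 86.9 CPM with E2, against 81.0, 75.2 and 78.9 CPM with vehicle (0.18 ± 0.03, adjusted p = 0.000161). CDC25C, the second such phosphatase, and CKS2, a small subunit of the CDK1 complex, were called in none of the E2 comparisons with vehicle. In C4-2 CDK1 had 337, 336 and 329.7 CPM with E2, against 359, 358 and 358 CPM with vehicle, every E2 library lying below every vehicle library, with a difference of -0.10 (95% interval -0.18 to -0.01) that was not called (adjusted p = 0.174).

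Of the genes that carry cells through anaphase, CDC20 and UBE2C rose with E2 in both 22Rv1 and LNCaP. CDC20, the activator of the anaphase-promoting complex, had 153, 163 and 160.4 CPM with E2 in 22Rv1, against 133, 135 and 137 CPM with vehicle (0.23 ± 0.05, adjusted p = 0.000684). In LNCaP it had 138, 136 and 133 CPM with E2, against 118, 121 and 113 CPM with vehicle (0.21 ± 0.04, adjusted p = 5.07e-05), the highest fold change of the 42 in that line. In C4-2 it had 164, 168 and 163 CPM with E2, against 182, 169 and 172 CPM with vehicle, lower in each E2 library but not called. UBE2C, the ubiquitin-conjugating enzyme of the same complex, had 86.7, 89.0 and 85.3 CPM with E2 in 22Rv1, against 68.6, 76.5 and 75.9 CPM with vehicle (0.24 ± 0.05, adjusted p = 0.00106), and was called in LNCaP at 0.11 although its groups overlapped there. PTTG1, securin, which holds separase inactive until anaphase, was not called with E2 in any line.

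Of the chromosomal passenger complex, which corrects faulty attachments, CDCA8 (borealin) and BIRC5 (survivin) rose in both lines and the kinase AURKB was not called in either. CDCA8 had 61.3, 61.5 and 62.3 CPM with E2 in 22Rv1, against 50.6, 53.0 and 51.1 CPM with vehicle (0.26 ± 0.06, adjusted p = 0.00149), and 82.4, 84.7 and 78.5 CPM with E2 in LNCaP, against 71.6, 72.6 and 69.1 CPM with vehicle (0.20 ± 0.04, adjusted p = 0.000278). Its C4-2 values were 80.3, 81.4 and 80.4 CPM with E2, against 81.4, 80.8 and 82.3 CPM with vehicle. BIRC5 had 154, 155 and 152 CPM with E2 in 22Rv1, against 128, 131 and 141 CPM with vehicle (0.21 ± 0.05, adjusted p = 0.0032). In LNCaP it had 174, 179 and 174 CPM with E2, against 157, 163 and 166 CPM with vehicle (0.11, adjusted p = 0.0136). All of these groups stood apart except CDCA8 in C4-2.

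Of the kinases PLK1, AURKA and NEK2, PLK1 and AURKA were called in LNCaP and NEK2 in 22Rv1. PLK1, polo-like kinase 1, had 126, 122 and 119 CPM with E2 in LNCaP, against 107, 117 and 116 CPM with vehicle (0.11 ± 0.03, adjusted p = 0.0163), and AURKA, the kinase of centrosomes, had 83.9, 87.1 and 82.7 CPM with E2, against 76.6, 79.2 and 76.8 CPM with vehicle (0.12 ± 0.03, adjusted p = 0.00632). In 22Rv1 both had E2 libraries above all vehicle libraries, PLK1 having 95.8, 96.6 and 91.2 CPM with E2, against 87.2, 84.9 and 85.8 CPM with vehicle, and AURKA 59.6, 61.9 and 57.4 CPM with E2, against 52.6, 56.8 and 56.3 CPM with vehicle, but neither was called (adjusted p = 0.085 and 0.18). For PLK1 the 95% interval of the 22Rv1 log2 fold change was 0.01 to 0.26, which contains the LNCaP value. NEK2, a centrosome kinase, rose in 22Rv1 by 0.16, and the difference of its response between 22Rv1 and LNCaP was not called. FOXM1, the transcription factor that drives many of these genes, had 174, 175 and 178 CPM with E2 in LNCaP, against 161, 161 and 164 CPM with vehicle (0.12 ± 0.03, adjusted p = 0.00839). In 22Rv1 it had 188, 172 and 187 CPM with E2, against 172, 170.2 and 171 CPM with vehicle (0.09, 95% interval -0.03 to 0.21, adjusted p = 0.235).

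**Figure D2:**
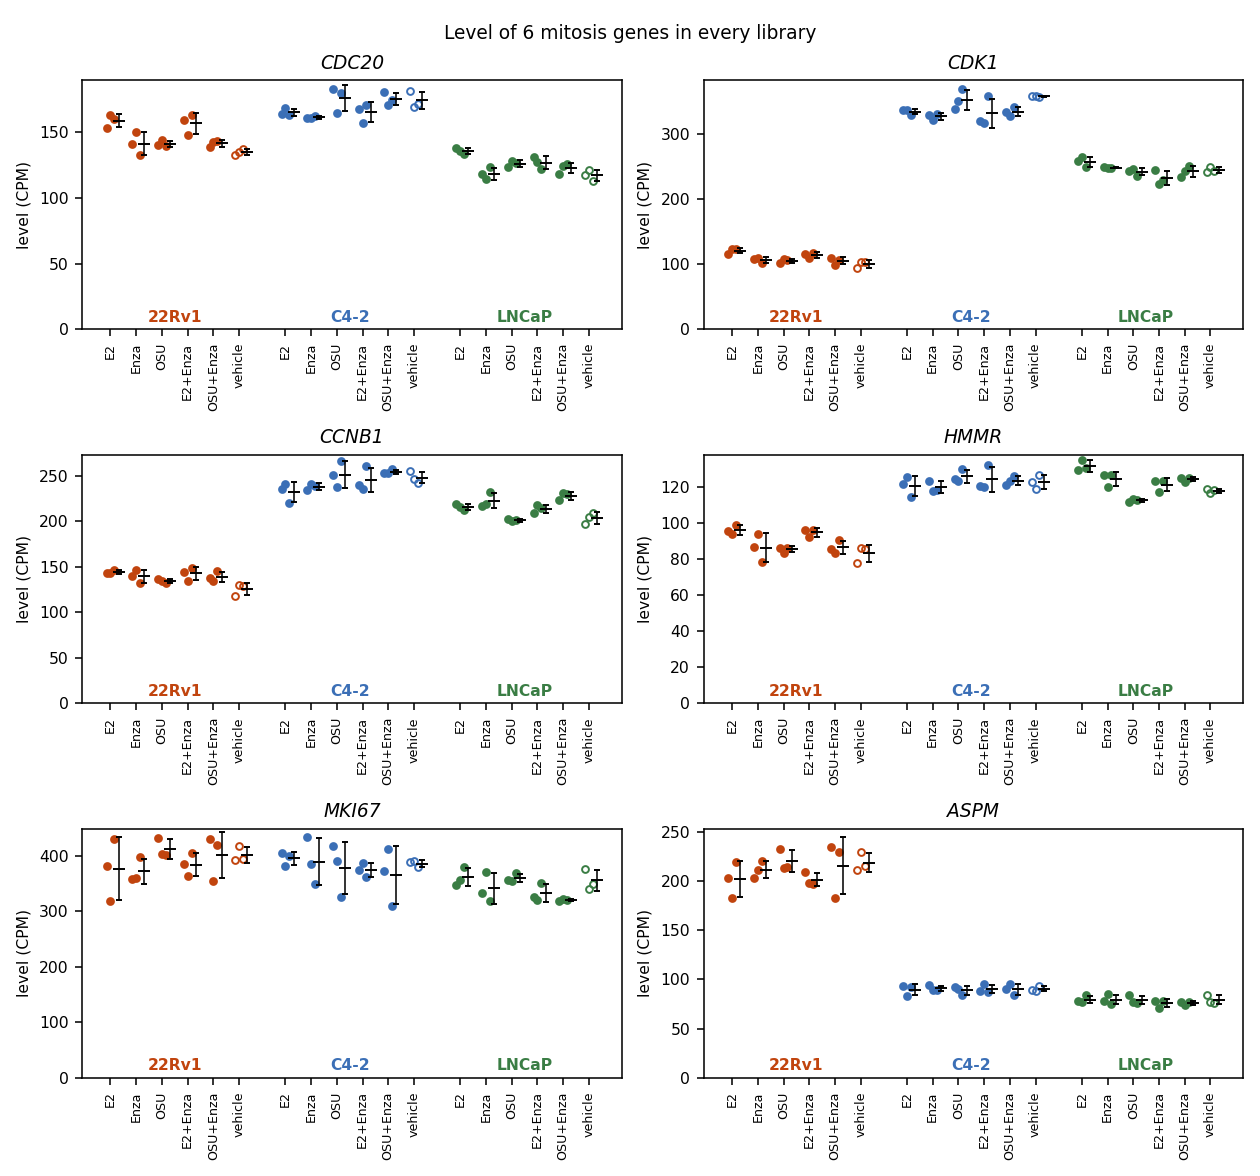
CPM of CDC20, CDK1, CCNB1, HMMR, MKI67 and ASPM in each of the 54 libraries, by line and treatment, with the mean and SD of 3 libraries and vehicle as open circles. CDC20 lies above its vehicle libraries with E2 in 22Rv1 and LNCaP and not in C4-2, MKI67 overlaps between E2 and vehicle in 22Rv1 and LNCaP, and ASPM is highest in 22Rv1 under every treatment.

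At the kinetochore, CENPA, the histone H3 variant that marks centromeres, was 17.3, 16.3 and 17.3 CPM with E2 in 22Rv1, against 12.4, 15.7 and 15.3 CPM with vehicle (0.23 ± 0.08, adjusted p = 0.024). NDC80 and NUF2, partners in the complex that grips microtubules, rose in 22Rv1 by 0.18 and 0.19, and NUF2 rose in LNCaP by 0.12. Of the spindle checkpoint, MAD2L1, the inhibitor that binds CDC20, rose in 22Rv1 with 78.2, 74.4 and 78.2 CPM with E2, against 65.9, 66.0 and 65.8 CPM with vehicle (0.22, adjusted p = 0.00271). The checkpoint kinase TTK and the checkpoint protein BUB3 rose there by 0.15 and 0.16, whereas BUB1 and BUB1B, the kinase and pseudokinase of the checkpoint, were not called, and 0 of these 5 genes were called in LNCaP. CENPF, a large protein of the outer kinetochore, had 352, 302 and 394 CPM with E2 in 22Rv1, against 362, 394 and 365 CPM with vehicle, overlapping groups with a difference of -0.10 (95% interval -0.26 to 0.05). CENPE, the kinetochore kinesin, was also not called.

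Of the spindle genes, HMMR, a microtubule-binding protein of spindle poles, rose with E2 in both lines. It had 95.9, 94.1 and 99.2 CPM with E2 in 22Rv1, against 78.2, 86.4 and 85.6 CPM with vehicle (0.21, adjusted p = 0.00587), and 129.5, 135 and 131 CPM with E2 in LNCaP, against 119, 117 and 118 CPM with vehicle (0.16 ± 0.03, adjusted p = 0.000309). TPX2, which activates AURKA on the spindle, rose by 0.14 in 22Rv1 and by 0.12 in LNCaP, and the midzone bundler PRC1 rose by 0.19 in 22Rv1. Among the kinesins, KIF2C, which dismantles microtubules, rose in 22Rv1 by 0.15, and KIF20A, a motor of cytokinesis, rose in LNCaP by 0.13, while KIF11, KIF23 and KIF4A were called in none of the 3 lines. The cleavage furrow scaffold ANLN rose by 0.16 in 22Rv1 and by 0.15 in LNCaP, and ECT2, the exchange factor that starts the furrow, was not called. The microtubule proteins DLGAP5 and NUSAP1 were not called either.

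The 2 members most used as marks of proliferation were not called with E2 in any line. MKI67, which encodes the Ki-67 protein of mitotic chromosome surfaces, had 381, 317 and 430.4 CPM with E2 in 22Rv1, against 392, 418 and 395 CPM with vehicle (-0.10, 95% interval -0.26 to 0.06). In LNCaP it had 347, 357 and 379 CPM with E2, against 376, 340.2 and 349 CPM with vehicle (0.02), and in C4-2 405, 381 and 398 CPM with E2, against 388, 389.9 and 379 CPM with vehicle. TOP2A, the topoisomerase that untangles chromosomes, had 226, 219 and 236 CPM with E2 in 22Rv1, against 222, 243 and 234 CPM with vehicle (-0.04, 95% interval -0.14 to 0.07), and 279, 291 and 287 CPM with E2 in LNCaP, against 285, 278 and 279.9 CPM with vehicle (0.02). ASPM, a spindle pole protein, had the lowest fold change of the 42 in 22Rv1, -0.12, with 203, 183 and 219.5 CPM with E2, against 212, 229.5 and 215 CPM with vehicle. These groups overlapped in every case, and E2 library 2 of 22Rv1 was the lowest of its group for MKI67, CENPF, TOP2A and ASPM.

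The promoters of 35 members were matched by symbol in RefSeq (GRCh38.p14), and the 7 not matched were TPX2, BIRC5, BUB3, AURKA, FOXM1, TTK and UBE2C. A search of 250 bases before to 50 after the start, on both strands, looked for CHR motifs, spelled TTTGAA, with the variant spelling TTCGAA also accepted. CCAAT boxes were searched by the letters of their name, and overlapping matches were each counted. A CHR motif lay in 25 of the 35 (71.4%), where 16.6% of 27305 promoters of all genes and 11.7% of the 12644 promoters of protein-coding genes in the table had one. A CCAAT box lay in 27 (77.1%, against 35.7 and 36.3%), both motifs lay in 21 (60%, against 6.58 and 4.82%), and 18 held at least 2 CCAAT boxes (51.4%, against 11.3 and 13.3%). In the shorter window from 100 bases before the start, 22 members (62.9%) held a CHR motif, against 7.43% of all promoters. The 250 bases before the start are shown for CDC20, CCNB2, HMMR and CDCA8, which rose with E2 in both 22Rv1 and LNCaP, for CDK1, which rose in 22Rv1, and for KIF2C, which rose in 22Rv1 and held neither motif. All 6 lie on the + strand, at chr1:43358731-43358980, chr15:59104896-59105145, chr5:163460382-163460631, chr1:37692266-37692515, chr10:60778081-60778330 and chr1:44739587-44739836 in that order, and capitals mark the CHR and CCAAT matches.
CDC20: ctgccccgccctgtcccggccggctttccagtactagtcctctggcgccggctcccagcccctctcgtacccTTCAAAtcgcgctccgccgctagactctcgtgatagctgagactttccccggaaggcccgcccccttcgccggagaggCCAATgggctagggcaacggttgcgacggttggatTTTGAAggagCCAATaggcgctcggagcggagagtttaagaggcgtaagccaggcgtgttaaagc
CCNB2: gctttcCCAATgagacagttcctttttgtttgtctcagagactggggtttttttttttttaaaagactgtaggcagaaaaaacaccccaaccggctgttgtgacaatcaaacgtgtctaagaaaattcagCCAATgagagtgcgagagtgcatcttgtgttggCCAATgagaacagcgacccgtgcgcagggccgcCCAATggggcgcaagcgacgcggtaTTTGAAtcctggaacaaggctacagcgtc
HMMR: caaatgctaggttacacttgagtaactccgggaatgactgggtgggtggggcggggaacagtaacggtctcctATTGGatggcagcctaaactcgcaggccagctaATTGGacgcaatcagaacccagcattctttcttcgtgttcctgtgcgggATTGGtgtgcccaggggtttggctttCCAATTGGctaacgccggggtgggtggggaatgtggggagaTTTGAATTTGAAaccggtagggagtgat
CDCA8: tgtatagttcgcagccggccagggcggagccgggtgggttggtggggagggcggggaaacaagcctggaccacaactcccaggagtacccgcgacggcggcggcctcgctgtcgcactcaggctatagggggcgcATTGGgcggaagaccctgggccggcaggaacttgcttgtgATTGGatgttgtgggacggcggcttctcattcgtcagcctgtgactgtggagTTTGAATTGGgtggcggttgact
CDK1: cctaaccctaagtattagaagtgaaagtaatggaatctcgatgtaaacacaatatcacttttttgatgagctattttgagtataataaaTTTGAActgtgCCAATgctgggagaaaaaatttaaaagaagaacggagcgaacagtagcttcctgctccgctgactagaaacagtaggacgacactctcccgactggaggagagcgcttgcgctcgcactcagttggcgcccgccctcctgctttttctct
KIF2C: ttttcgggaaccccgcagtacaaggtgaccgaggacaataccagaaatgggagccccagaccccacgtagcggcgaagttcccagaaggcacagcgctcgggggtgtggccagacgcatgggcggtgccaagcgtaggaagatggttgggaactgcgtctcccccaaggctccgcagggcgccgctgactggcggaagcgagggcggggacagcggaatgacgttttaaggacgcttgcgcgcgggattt
Counted back from the start, CHR matches began at position -65 and -178 in CDC20, -29 in CCNB2, -28 and -22 in HMMR, -23 in CDCA8 and -161 in CDK1. In the 250 bases before the start CCNB2 held 4 CCAAT boxes, HMMR 5, CDCA8 3, CDC20 2 and CDK1 1. In CDK1 the box, at -150, lay after the CHR match. Members not called with E2 in any line held both motifs too, among them TOP2A, MKI67 and DLGAP5. They had 2, 2 and 3 CHR matches and 4, 2 and 2 CCAAT boxes, while CDC25C and CENPE, also not called, held neither motif. Whether the motifs differ between called and uncalled members was not tested. The matches describe these letters and are not measured binding.

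The E2 response itself differed between lines, most widely between 22Rv1 and C4-2. In the fit of all 54 libraries 28 members had a higher E2 response in 22Rv1 than in C4-2 and 0 a lower one, against 28.8% of all genes called in either direction and 19.4% higher, with a median difference of 0.20. The difference was 0.37 for CDK1 (adjusted p = 1.28e-05) and 0.37 for CCNA2 (adjusted p = 6.29e-05), 0.34 for CENPA, 0.32 for MAD2L1, 0.31 for CDC20 (adjusted p = 0.000138), 0.29 for CCNB1 (adjusted p = 0.000373), 0.26 for BIRC5, 0.21 for PLK1 and 0.20 for AURKA. Without C4-2 vehicle library 1, the one with the 22Rv1 tag, 22 members were called, CDK1 was at 0.36 and CCNA2 at 0.35, and AURKA (adjusted p = 0.0678) and PLK1 (adjusted p = 0.0569) were no longer called.

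Against LNCaP the C4-2 response was lower in 9 members and higher in 0 (8.41% of all genes called, 5.21% lower), CDC20 at -0.29 (adjusted p = 0.000609), CCNB2 at -0.23, CDCA8 at -0.22 and AURKA at -0.21 having the largest differences. The count was 4 without LNCaP vehicle 1, 3 without LNCaP E2 2, 2 without C4-2 vehicle 1 or C4-2 E2 3, and 13, the highest, without C4-2 E2 2. It was 1 with total reads, 2 with protein-coding reads and 3 with cyclic loess as the scale. CDC20 was still called without C4-2 vehicle 1, at -0.26 (adjusted p = 0.00535). Between 22Rv1 and LNCaP the response was higher in 22Rv1 for 5 members, MAD2L1 (0.27, adjusted p = 0.0114), CENPA (0.27), CCNA2 (0.21), CDK1 (0.20, adjusted p = 0.0222) and KIF2C (0.16), and lower for 0 (11.2% of all genes called, 6.83% higher). This count was 1 without 22Rv1 vehicle 1, 2 without 22Rv1 E2 2 or LNCaP vehicle 3, and 3 without 22Rv1 E2 3, LNCaP vehicle 1, LNCaP E2 1 or LNCaP E2 3, and it was 2 with protein-coding reads and 1 with cyclic loess as the scale.

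Enza alone moved few members. In LNCaP 5 rose and 0 fell, against 20.4% of genes called in either direction and 9.79% higher. PTTG1 had 81.6, 74.2 and 78.6 CPM with Enza, against 69.0, 71.0 and 70.5 CPM with vehicle (0.15 ± 0.04, adjusted p = 0.00238). CCNB1 had 216, 219 and 232 CPM with Enza, against 197, 204 and 209 CPM with vehicle (0.13 ± 0.03, adjusted p = 0.00436). Both groups stood apart, as did NEK2 (0.11 ± 0.04, adjusted p = 0.0363) and ECT2 (0.10 ± 0.03, adjusted p = 0.0355), and the fifth was KIF2C at 0.09. The LNCaP count was 2 without Enza library 3, 3 without vehicle 1, vehicle 2 or Enza 1, and 8 without Enza 2, and it was 2 with total and 3 with protein-coding reads as the scale. In C4-2 3 members fell and 0 rose (8.44% of genes called, 5.71% lower). MAD2L1 had 71.0, 67.8 and 72.2 CPM with Enza, against 83.7, 81.6 and 78.9 CPM with vehicle (-0.21 ± 0.06, adjusted p = 0.0214). KIF20A had 131, 127 and 129 CPM with Enza, against 151, 142 and 144 CPM with vehicle (-0.17 ± 0.04, adjusted p = 0.00371), and BUB3 had 152, 149 and 149 CPM with Enza, against 167, 165 and 169 CPM with vehicle (-0.15 ± 0.04, adjusted p = 0.0217). Every Enza library lay below every vehicle library for these 3. The count was 1 without vehicle 1, vehicle 2 or Enza 2, and without vehicle 1, the library with the 22Rv1 tag, KIF20A was at -0.15 (adjusted p = 0.0382), MAD2L1 at -0.19 (adjusted p = 0.0994) and BUB3 at -0.16 (adjusted p = 0.0665). In 22Rv1 limma and voom called 0 members (0.659% of genes called), 4 had an unadjusted p under 0.05, and the values ran from -0.11 for MKI67 to 0.15 for CCNB1.

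The Enza response was higher in 22Rv1 than in C4-2 for 12 members and lower for 0 (11.3% of genes called, 7.57% higher). MAD2L1 differed by 0.29, NEK2, CDK1 and NUF2 by 0.22 each, CCNB1 and AURKA by 0.21 each and CDC20 by 0.17. Without C4-2 vehicle 1 there were 5, of which CDK1 at 0.22 (adjusted p = 0.0335), NEK2 at 0.21 (adjusted p = 0.0494) and MAD2L1 at 0.27 (adjusted p = 0.0433) were named above. The count was also 5 without C4-2 Enza 2, 3 without 22Rv1 Enza 2 and 2 without 22Rv1 vehicle 1. With total reads as the scale it was 0, with protein-coding reads 1 and with cyclic loess 2, so that 0 members were called under all 6 scalings. Against LNCaP, the C4-2 response was lower for NEK2 alone (-0.21, adjusted p = 0.0349; 4.99% of genes called). This call was lost without C4-2 vehicle 1, without LNCaP vehicle 1 and with total or protein-coding reads as the scale. Leaving out 1 library at a time changed the count to 0 or 2 for 9 of the 12 libraries. Between 22Rv1 and LNCaP limma and voom called 0 members (4.49% of genes called), and 2 had an unadjusted p under 0.05.

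When E2 was given with Enza in 22Rv1, 17 members rose against vehicle and 0 fell (13.8% of genes called, 8.1% higher). MAD2L1 had 76.8, 76.0 and 82.0 CPM with E2 and Enza, against 65.9, 66.0 and 65.8 CPM with vehicle (0.24 ± 0.05, adjusted p = 0.00204). CDCA8 was higher by 0.24 ± 0.06 (adjusted p = 0.00469), CCNA2 by 0.23 ± 0.05 (adjusted p = 0.00525), CDC20 by 0.21 (adjusted p = 0.00285) and BIRC5 by 0.21 (adjusted p = 0.00518). CDK1 had 115, 109 and 117 CPM with E2 and Enza, 108, 109 and 102 CPM with Enza and 93.6, 103 and 103 CPM with vehicle. This count was 4 without vehicle 1 or without E2 with Enza library 3, 9 without E2 with Enza library 1 and 11 without vehicle 3. It was 3 with total reads, 8 with protein-coding reads and 9 with cyclic loess as the scale, and MAD2L1, CDC20 and BIRC5 were called under all 6 scalings. Of all genes, 438, 699 and 852 were called higher on those 3 scales, against 1204 on the main scale. Against Enza alone 2 members were called, CDC20 with 159, 148 and 163 CPM with both agents, against 141, 150.0 and 133 CPM with Enza (0.15 ± 0.05, adjusted p = 0.0432, overlapping groups), and MAD2L1 (0.17 ± 0.05, adjusted p = 0.0404), against 7.94% of genes, and leaving out single libraries gave 0 (without Enza 1, Enza 3 or E2 with Enza 1), 1 (without E2 with Enza 3) or 6 (without Enza 2 or E2 with Enza 2).

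In LNCaP 4 members rose with E2 and Enza against vehicle and 0 fell (7.42% of genes called, 4.52% higher). CDC25B had 87.0, 88.5 and 89.0 CPM with both agents, against 81.0, 75.2 and 78.9 CPM with vehicle (0.17, adjusted p = 0.00182). The others were PTTG1 (0.14, adjusted p = 0.0137), CDCA8 (0.14, adjusted p = 0.0303) and CCNB2 (0.13, overlapping groups). The count was 1 without vehicle 1 or E2 with Enza library 2, and 2 without E2 with Enza library 1. Against Enza alone, 4 members were higher and 2 lower (23.1% of genes called, 12.2% higher). PRC1 had 119, 117 and 119 CPM with E2 and Enza, against 126, 125 and 131 CPM with Enza (-0.11, adjusted p = 0.00674), and ECT2 had 138, 136 and 130.5 CPM with both, against 148, 143 and 149 CPM with Enza (-0.12, adjusted p = 0.00672). Both lay wholly below the Enza libraries, while CDC25B (0.12, adjusted p = 0.0111), CDCA8 (0.12), BUB3 (0.10) and CDC20 (0.10, adjusted p = 0.0449, overlapping groups) were higher. The split was 1 higher and 3 lower without Enza 2 or without E2 with Enza library 1, and 1 higher and 2 lower without E2 with Enza library 2, and under total read scaling it was 0 higher and 3 lower. In C4-2 limma and voom called 0 members of E2 with Enza against vehicle (0.0784% of genes called), and 0 without vehicle 1. In the main fit 2 had an unadjusted p under 0.05. Against Enza 1 was called, KIF20A, with 141, 140.3 and 144 CPM with both agents, against 131, 127 and 129 CPM with Enza (0.13 ± 0.04, adjusted p = 0.0265; 7.38% of genes called), a call lost without Enza 2, Enza 3, E2 with Enza 1 or E2 with Enza 3.

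The effect of E2 in the presence of Enza minus that without it was tested as an interaction. In LNCaP it was below 0 for 8 members and above 0 for none of those called (9.05% of genes called, 4.54% below 0): NUF2 -0.20 (adjusted p = 0.0352), HMMR -0.19 (adjusted p = 0.00427), PRC1 -0.19 (adjusted p = 0.00362), NEK2 -0.19 (adjusted p = 0.0303), TPX2 -0.16, CDK1 -0.16 (adjusted p = 0.0317), FOXM1 -0.15 (adjusted p = 0.044) and CCNB1 -0.14 (adjusted p = 0.0478). HMMR shows the shape, with 129.5, 135 and 131 CPM with E2, 127, 120.3 and 127 CPM with Enza, 124, 117 and 124 CPM with both and 119, 117 and 118 CPM with vehicle. Each agent alone lay above vehicle, and both together overlapped it. The count was 2 without E2 2, Enza 3 or E2 with Enza 3, 4 without vehicle 1 or vehicle 2, and 5 without E2 1 or E2 with Enza 2. With total reads as the scale limma called 0 of the members, with protein-coding reads 2, with cyclic loess 5 and with median-of-ratios 9, and 0 were called under all 6 scalings. In C4-2 and 22Rv1 limma called 0 members for the interaction, as did voom (1.5 and 0.424% of genes called). C4-2 reached 2 without E2 with Enza library 2 and stayed at 0 without vehicle 1. At an unadjusted p under 0.05 there were 14 members in C4-2 and 3 in 22Rv1.

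OSU moved none of the 42 members past the test in any line. With OSU against vehicle limma called 0 members in 22Rv1, C4-2 and LNCaP, as did voom (0, 0 and 0.014% of genes called). At an unadjusted p under 0.05, a looser threshold with no share of all genes given, there were 1, 1 and 5 members. The values ran from -0.06 for KIF4A to 0.15 for CENPA in 22Rv1, from -0.09 for NEK2 to 0.09 for AURKB in C4-2, where 0 were called without vehicle 1 too, and from -0.09 for DLGAP5 to 0.11 for CDC20 in LNCaP. The 95% interval of CDC20 in LNCaP was 0.03 to 0.18, and that of CDK1 was -0.03 to 0.17 in 22Rv1, -0.11 to 0.06 in C4-2 and -0.09 to 0.05 in LNCaP. With OSU and Enza against Enza limma called 0 in each line (0.101, 0 and 0.0982% of genes called), and 2, 5 and 6 members had an unadjusted p under 0.05. Averaged over the 3 lines, OSU gave 0 calls by limma and voom and values from -0.03 to 0.08 (CDCA8), with 0% of genes called. OSU with Enza against Enza gave 0 calls (0.443% of genes called). Members at an unadjusted p under 0.05 numbered 2 and 10. At 12 h these data limit an OSU effect on CDK1 to within those intervals and do not show that it is absent.

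How many members were called with E2 depended on how libraries were scaled. The authors' effective library sizes were 1.04, 1.06 and 1.05 times the total reads in the E2 libraries of 22Rv1, against 1.12, 1.09 and 1.08 in vehicle libraries. Scaled to total reads, 6 members rose in 22Rv1 and the median of the 42 was 0.07, with all genes at -0.03. Scaled to reads in protein-coding genes, 9 rose (median 0.05, all genes -0.05). Cyclic loess called 11 higher and 1 lower (median 0.06, all genes 0.01), and TMM and median-of-ratios factors called 19 each. Of all genes, the main scale called 2540 higher and 1578 lower. The all-gene counts were 1007 and 2131 with total reads, 1037 and 2585 with protein-coding reads and 1365 and 1642 with cyclic loess. With TMM they were 2179 and 1836, and with median-of-ratios 2153 and 1819. The median of the members lay above that of all genes under each of the 6 scalings, by 0.05 to 0.10 on the log2 scale. CDK1, CCNA2, CDC20, UBE2C, BIRC5 and CDCA8 were called higher under all 6, CDK1 at 0.19 to 0.27 and CDC20 at 0.14 to 0.23. ASPM was called lower under 1 of the 6, where it was at -0.22 (adjusted p = 0.0499).

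In LNCaP total read scaling left 4 members higher and 1 lower, protein-coding reads 7 and 1, cyclic loess 13 and 1, TMM 14 and 0, and median-of-ratios 19 and 0. Of all genes, the main scale called 1894 higher and 1657 lower. The all-gene counts were 1148 and 2657 with total reads and 1394 and 2589 with protein-coding reads. They were 1862 and 1699 with cyclic loess and 1971 and 1588 with median-of-ratios. Recomputed TMM repeated the main result in LNCaP and across lines, so it is no separate check there. CDC20 (0.15 to 0.21), CDCA8 (0.15 to 0.21), CDC25B (0.13 to 0.19) and HMMR (0.10 to 0.16) were called higher under all 6 scalings, and BUB1B was lower under 3 (lowest -0.12). In C4-2 each of the 6 scalings called 0 members with E2. The small structured RNAs that these total RNA libraries also hold took 17.0, 16.9 and 16.7% of reads with E2 in LNCaP, against 13.2, 16.0 and 17.7% with vehicle, and 9.51, 8.29 and 10.3% with E2 in 22Rv1, against 9.35, 10.1 and 10.2% with vehicle. Their part in the result was not tested. As plain shares of all reads, the members took 0.507% with E2, against 0.498% with vehicle in 22Rv1, 0.506% with E2, against 0.498% with vehicle in LNCaP and 0.536% with E2, against 0.546% with vehicle in C4-2, on average over 3 libraries. Of the 28 members whose E2 response was higher in 22Rv1 than in C4-2, 11 were called under all 6 scalings, CDK1 (0.22 to 0.37), CCNA2, CCNB1, NEK2, MAD2L1, CDC20, UBE2C, BIRC5, CENPA, NDC80 and PRC1. PTTG1 and CCNB1 with Enza in LNCaP, and CDC20 in the E2 response of C4-2 against LNCaP (-0.29 to -0.21), were likewise called under all 6.

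**Figure D3:**
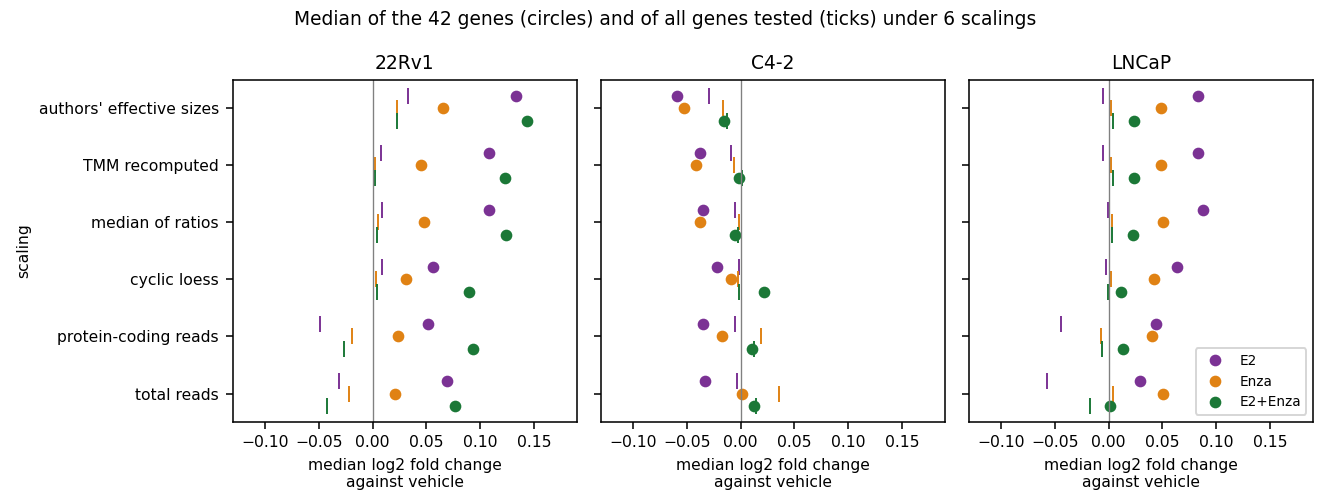
Median log2 fold change of the 42 members (circles) and of all genes tested (ticks) with E2, Enza and E2 with Enza against vehicle in each line, under 6 ways to scale the libraries. With E2 in 22Rv1 the members lie at 0.05 to 0.13 and above the ticks under each scaling, and in C4-2 they lie below 0 under each.

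Members with short transcripts had the larger E2 values in 22Rv1. Over the 42 members the E2 log2 fold change correlated with the log2 of the canonical transcript length at Pearson's r = -0.56, and every r below is likewise with log2 length. This comparison was chosen after the values were seen, with all members sharing the same libraries. Over all genes with a known length (87.9% of those tested) r was -0.19. The 10 shortest members, from CKS2 (616 bases) to CCNB1 (2029 bases), had a median of 0.19 and 7 calls, where all genes up to that length had a median of 0.12. The 10 longest, from 4388 to 12716 bases, had a median of -0.01 and 3 calls, where all genes of at least that length were also at -0.01. In LNCaP r was -0.27 (all genes -0.06), with medians of 0.09 and 0.04 for the shortest and longest 10, and in C4-2 r was 0.20. With Enza the values were -0.54 in 22Rv1, 0.22 in C4-2 and -0.44 in LNCaP, and with E2 and Enza in 22Rv1 -0.62. Comparisons in which 0 members were called also gave such values, -0.48 in C4-2 and -0.53 in LNCaP for OSU and Enza against Enza, and -0.34 for OSU in C4-2. The part of transcript length in the calls was not tested.

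**Figure D4:**
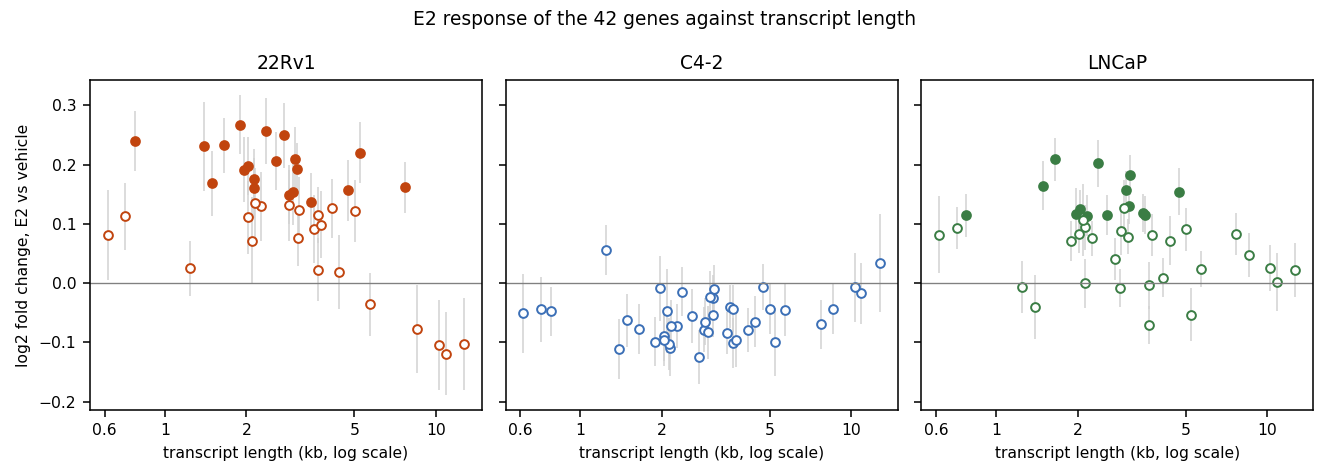
E2 log2 fold change of the 42 members against the length of the canonical transcript in kilobases, 1 panel per line, with filled points where the adjusted p was under 0.05. In 22Rv1 7 of the 10 shortest and 3 of the 10 longest transcripts are filled, and the long transcripts ASPM, MKI67 and CENPF lie below 0.

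With vehicle alone some members differed between lines by more than any agent moved a member, up to -1.84 for CDK1 in 22Rv1 against C4-2. Others were close, CCNA2 averaging 100.0 ± 4.10 CPM in 22Rv1, 101 ± 2.46 CPM in C4-2 and 104 ± 2.79 CPM in LNCaP. In vehicle cells 30 members were higher in C4-2 than in LNCaP and 2 lower (66.7% of 16026 genes called, 34% higher), with a median of 0.24 where all genes were at 0.00. PLK1 had 199 ± 3.25 CPM in C4-2, against 113 ± 5.51 CPM in LNCaP (SD, n = 3; log2 difference 0.81 ± 0.05, adjusted p = 6.24e-20). ECT2 (0.65 ± 0.04), CKS2 (0.58 ± 0.08) and CDC20 (0.57 ± 0.04) followed, with CDK1 at 0.55, BIRC5 at 0.53, AURKA at 0.45, CCNB1 at 0.28 and FOXM1 at 0.25. CENPE (-0.21 ± 0.06) and CDC25C (-0.16 ± 0.07) were lower in C4-2, and TOP2A (0.00), MKI67 (0.12) and CENPF (-0.15, adjusted p = 0.0525) were not called. Without C4-2 vehicle 1, 29 were higher and 1 lower.

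In 22Rv1 the members were spread both ways. Against LNCaP 11 were higher and 25 lower (83.3% of genes called, 40.4% higher and 43% lower; median -0.21, all genes -0.03). ASPM had 212, 229.5 and 215 CPM in 22Rv1, against 84.4, 77.0 and 76.2 CPM in LNCaP (1.46 ± 0.06). NEK2 had 99.9 ± 6.13 CPM in 22Rv1, 60.4 ± 0.829 CPM in C4-2 and 50.9 ± 1.01 CPM in LNCaP (0.96 ± 0.04 for 22Rv1 against LNCaP), and NUF2 (0.65) and KIF11 (0.58), the motor that pushes spindle poles apart, were the next highest. CDK1 had 100.0 ± 5.59 CPM in 22Rv1, 358 ± 0.838 CPM in C4-2 and 245 ± 4.05 CPM in LNCaP, so that 22Rv1 stood at -1.29 ± 0.04 against LNCaP (adjusted p = 1.07e-31). DLGAP5 had 42.1 ± 1.59 CPM in 22Rv1, 121 ± 0.946 CPM in C4-2 and 96.4 ± 1.33 CPM in LNCaP (-1.19 ± 0.05). CKS2 (-0.87 ± 0.08), NUSAP1 (-0.71) and CCNB1 (-0.70) were also low, whereas CDC20 (0.20), CENPF (0.22) and MKI67 (0.18, adjusted p = 0.0469) were higher in 22Rv1, TOP2A was at -0.27 and FOXM1 (0.08, adjusted p = 0.0909) was not called.

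Against C4-2, 6 members were higher in 22Rv1, ASPM (1.27), NEK2 (0.72), NUF2 (0.62), CENPF (0.37), KIF11 (0.35) and TTK (0.21), and 32 were lower (84.7% of genes called, 41.5% higher and 43.3% lower), led by CDK1 (-1.84 ± 0.04), DLGAP5 (-1.51), CKS2 (-1.45) and PLK1 (-1.21). Without C4-2 vehicle 1, 38 members were again called. With total reads as the scale, the median of all genes became -0.10 for C4-2 against LNCaP and 0.22 for 22Rv1 against C4-2, and the counts became 21 higher and 7 lower, and 10 higher and 23 lower. Under all 6 scalings 21 members were higher and 1 lower in C4-2 than in LNCaP, 11 higher and 20 lower in 22Rv1 than in LNCaP, and 6 higher and 23 lower in 22Rv1 than in C4-2. Recomputed TMM repeated the main result in these contrasts and is no separate check. TOP2A and FOXM1 changed sign between scalings, TOP2A in both contrasts with C4-2 and FOXM1 in that of 22Rv1 with C4-2. PTTG1, CKS2 and KIF4A have near-identical copies elsewhere in the genome and are uncertain, as are 15 members whose exons overlap another gene, among them PLK1, FOXM1, CENPA, HMMR and PRC1, since the strand setting of the counting is not given.

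**Figure D5:**
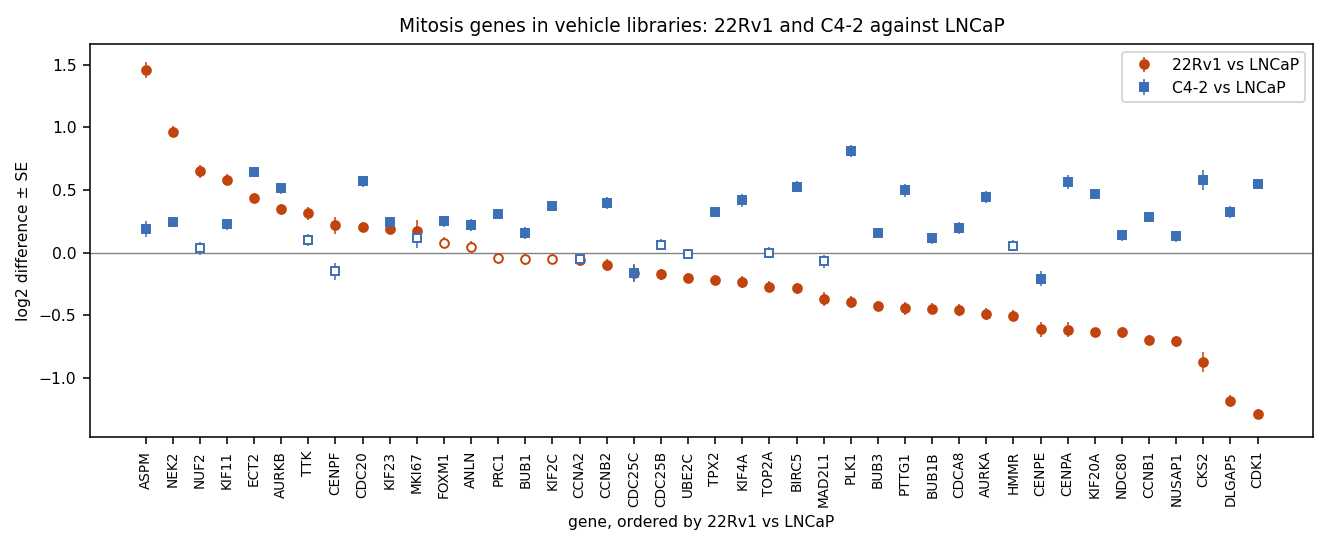
Log2 difference in vehicle cells of each member for 22Rv1 against LNCaP (circles) and C4-2 against LNCaP (squares), with its SE and filled where the adjusted p was under 0.05. ASPM and NEK2 lie highest for 22Rv1 at 1.46 and 0.96, and CDK1 and DLGAP5 lowest at -1.29 and -1.19.

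Per kilobase of the canonical transcript, which allows genes to be set side by side, the order also differed. In 22Rv1 vehicle cells UBE2C (94.8 ± 5.7 CPM per kb), CKS2 (85.4 ± 2.2) and CDC20 (81.9 ± 1.3) were the most abundant members by level. In C4-2 CKS2 (236 ± 23), CDK1 (190 ± 0.44) and PTTG1 (139 ± 9.8) led, and in LNCaP CKS2 (157 ± 12), CDK1 (130 ± 2.1) and UBE2C (109 ± 4.2). CDC25C was among the 3 lowest in each line, at 8.47 ± 0.71 CPM per kb in 22Rv1 and 8.42 ± 0.47 in C4-2. ASPM was at 8.33 ± 0.25 in C4-2 and 7.29 ± 0.42 in LNCaP, the lowest of the members in both, and at 20.1 ± 0.88 in 22Rv1. CDK1 stood at 53.0 CPM per kb in 22Rv1.

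Of 53 further mitosis genes, listed with earlier results of these data known and all tested, 20 rose and 1 fell with E2 in 22Rv1 (median 0.11; 27.7% of all genes called), 17 rose and 0 fell in LNCaP (median 0.08; 24.9% of all genes called), and 2 rose and 0 fell in C4-2 (5.82% of all genes called). CENPN, which binds CENPA nucleosomes, had larger fold changes with E2 than any of the 42 members in each line. It had 268, 267 and 271 CPM with E2 in LNCaP, 85.9, 84.2 and 88.7 CPM with Enza, 196, 178 and 179 CPM with both and 129, 128 and 125 CPM with vehicle. Its E2 change was 1.07 ± 0.03 in LNCaP, 0.70 ± 0.05 in C4-2 and 0.58 ± 0.05 in 22Rv1, and its Enza change was -0.56 in LNCaP and -0.39 in C4-2. The condensin subunit NCAPD3 (0.44) and the spindle protein CKAP2 (0.39) also rose with E2 in LNCaP, and the kinetochore genes SKA1 (0.37) and CENPW (0.35) in 22Rv1, where KNTC1, a checkpoint protein of the kinetochore, fell by 0.15. With Enza 6 of the 53 fell in LNCaP and 0 rose, near the share of all genes (20.4% called, 1516 of 14251 lower). Among the 6 were DEPDC1 and ERCC6L at -0.18 each. In C4-2 4 of the 53 fell with Enza (8.44% of all genes called, 5.71% lower).

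The shares of all genes called, given above, apply to these lists too: with E2, 17.1% higher in 22Rv1 and 13.3% higher in LNCaP, and 5.82% called either way in C4-2. With Enza 20.4% were called either way in LNCaP (9.79% higher) and 8.44% in C4-2 (5.71% lower). Differences between lines were not tested for the lists as such. Of 31 G1/S and DNA replication genes, 23 rose with E2 in 22Rv1 and 1 fell (median 0.18), with cyclin E2 (CCNE2) at 0.48 ± 0.05, the ribonucleotide reductase subunit RRM2 at 0.36 and thymidine kinase TK1 at 0.33, and CDK6 at -0.19. In LNCaP 6 rose and 2 fell with E2, CDK6 at 0.85 ± 0.07 and CCNE2 at -0.16, and 14 fell and 0 rose with Enza, with CDK6 at -0.82, DTL at -0.29 and the replication licensing factor CDC6 at -0.26. In C4-2 2 rose and 1 fell with E2, and 3 fell with Enza. Of 17 MuvB and E2F regulators, 4 rose with E2 in 22Rv1, near the share of all genes, LIN52 (0.25), MYBL2, which encodes B-MYB (0.22 ± 0.05), and E2F1 (0.21) being the largest, and TFDP2 fell (-0.13). In LNCaP LIN52 (0.19) was called with E2, and in C4-2 limma called 0 of the 17 with E2.

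Of 14 cell cycle brakes, 6 rose with E2 in 22Rv1 and 0 fell (27.7% of all genes called, 17.1% higher), led by SFN (0.39), the CDK4 and CDK6 inhibitor CDKN2D (0.32) and the CDK inhibitor CDKN1A (0.29). Of the 13 tested in LNCaP, where 24.9% of all genes were called with E2, 3 rose, CDKN2C (0.64), CDKN2D (0.41) and SFN (0.38), and 5 fell, TP53INP1 (-0.90), CCNG2 (-0.73) and BTG2 (-0.45) the furthest, while 6 rose and 0 fell with Enza, among them TP53INP1 (0.64), CCNG2 (0.59) and CDKN1A (0.34). In C4-2 4 fell with E2 and 3 rose with Enza (5.82 and 8.44% of all genes called). Of all genes, 20.4% were called with Enza in LNCaP.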

How the data were processed

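Total RNA was sequenced in 54 libraries (stranded kit, per the labels' protocols). Per the submitters' processing notes, hg38 was the build and edgeR, featureCounts, FastQC and Trimmomatic were used, with versions not given in the sources used here. The table the authors deposited is called CPM in the labels, but its values are a score, namely log2 CPM (0.5 reads added) times a constant per library that makes each column sum to 1000000, so that 24.3 to 30.1% of values per library are negative. This scale was inferred from the values alone, and whole reads were recovered for 100% of them (tolerance 0.01). Gene IDs were matched to RefSeq (18917 of 19225).

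CPM was computed from recovered reads and the authors' effective sizes, and log2(CPM + 0.5) was tested with limma 3.58.1 (R 4.3.3, mean-variance trend), which understates changes in genes of low level. Comparisons within a line used its 18 libraries (12 residual degrees of freedom) and those across lines all 54 (36). Two-sided p-values were adjusted by Benjamini-Hochberg over all genes of a comparison and called at 0.05. No count test was used, the table not being one of counts, and voom weights on the recovered reads were an alternative, beside other scalings, pseudocounts, no filter, 1 fit, a replicate block and leaving out each library. Scaling to protein-coding reads was added after the data were seen. Transcript lengths are those of GENCODE canonical transcripts. The fit was also run on simulated counts without library effects. Its outcome is not given here, and it does not bear on the spread between these libraries.

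The members and lists were chosen with earlier results of these data known. Named in full are CCNB1, CDK1, PLK1, AURKA, TOP2A, MKI67, FOXM1, BIRC5, CDC20 and CENPF, up to 4 members each way per comparison by fold change among called members whose libraries stand apart (called alone for interactions and line differences), and up to 3 genes each way of other lists. After ±, the SD of 3 libraries stands for levels and the SE for log2 values.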

Additional observations from a re-analysis of the deposited data

Results flagged for a closer look

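Differences between lines in the response to an agent, and interactions of E2 with Enza, are given again here because the difference itself passed the test (limma, adjusted over all genes). The E2 response was higher in 22Rv1 than in C4-2 for 28 members (19.4% of all genes higher), with differences on the log2 scale of 0.37 for CCNA2, 0.37 for CDK1, 0.34 for CENPA, 0.32 for MAD2L1, 0.31 for CDC20, 0.29 for CCNB1, 0.26 for BIRC5, 0.21 for PLK1 and 0.20 for AURKA. It was higher in 22Rv1 than in LNCaP for 5 members (6.83% of all genes higher), among them MAD2L1 (0.27), CENPA (0.27), CCNA2 (0.21) and CDK1 (0.20). It was lower in C4-2 than in LNCaP for 9 members (5.21% of all genes lower), among them CDC20 (-0.29), CCNB2 (-0.23), CDCA8 (-0.22) and AURKA (-0.21). Leaving out 1 library brought these counts of 28, 5 and 9 to as few as 20, 1 and 2.

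The Enza response was higher in 22Rv1 than in C4-2 for 12 members (7.57% of all genes higher), with MAD2L1 at 0.29, NEK2 at 0.22, CDK1 at 0.22, NUF2 at 0.22, CCNB1 at 0.21, AURKA at 0.21 and CDC20 at 0.17. It was lower in C4-2 than in LNCaP for 1, NEK2 (-0.21, 4.99% of all genes called either way). In LNCaP the interaction of E2 with Enza was below 0 for 8 members (4.54% of all genes below 0), among them NUF2 (-0.20), HMMR (-0.19), PRC1 (-0.19), NEK2 (-0.19), CDK1 (-0.16), FOXM1 (-0.15) and CCNB1 (-0.14). With total reads as the scale, limma called 0 members for this interaction and for both differences in the Enza response. Leaving out 1 library brought the counts of 12, 1 and 8 to as few as 2, 0 and 2.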

How the results depend on the processing

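A pseudocount of 0.1 or 2 CPM left each of the 32 counts of called members within 1.5 times its value. Of 7419 values of named members under alternatives, 7016 stayed on the same side of the threshold, 316 were no longer called and 81 were newly called. A further 6 changed sign and were called in the main fit, the alternative or both. Changes of sign in values called in neither were not counted as changes, so the 7016 may hold such values. The cause of the changes below was not tested. Scaled to total reads, the counts with E2 were 5 in LNCaP and 6 in 22Rv1, with Enza 2 in LNCaP, with E2 and Enza against vehicle 1 in LNCaP and 3 in 22Rv1, with E2 and Enza against Enza 3 in LNCaP (all lower) and 0 in 22Rv1, for the LNCaP interaction 0, for the E2 response 1 (C4-2 minus LNCaP) and 11 (22Rv1 minus C4-2), and for the Enza response 0 in both. With protein-coding reads they were 8, 9 and 3 for E2 in LNCaP, E2 in 22Rv1 and Enza in LNCaP, 8 for E2 and Enza against vehicle in 22Rv1, 3 in C4-2 and 1 in 22Rv1 for E2 and Enza against Enza, 2 for the LNCaP interaction, 2, 2 and 13 for the E2 response (C4-2 minus LNCaP, 22Rv1 minus LNCaP, 22Rv1 minus C4-2) and 0 and 1 for the Enza response (C4-2 minus LNCaP, 22Rv1 minus C4-2). Cyclic loess gave 12 for E2 and 9 for E2 and Enza against vehicle in 22Rv1, 3 for E2 and Enza against Enza in C4-2, 5 for the LNCaP interaction, 3, 1 and 12 for the E2 response in that order of lines and 2 for the Enza response of 22Rv1 minus C4-2. Recomputed TMM gave 5 for Enza in C4-2, and 3 in C4-2 and 5 in 22Rv1 for E2 and Enza against Enza, where median-of-ratios gave 5 in LNCaP (mostly lower), 2 in C4-2 and 5 in 22Rv1, besides 5 for the Enza response of C4-2 minus LNCaP, for which voom gave 3. One fit of all libraries gave 9 for E2 and 2 for Enza in LNCaP, 1 for E2 and Enza against vehicle there, 3 (mostly lower), 2 and 8 for E2 and Enza against Enza in LNCaP, C4-2 and 22Rv1, and 1 each for the interaction in LNCaP and C4-2. For E2 and Enza against Enza in 22Rv1, no filter gave 0 and the replicate block 1. The block changed no other count by over 1.5 times. Whether the numbers pair the libraries is not known. After group means were removed, same-numbered libraries correlated at -0.14 to 0.26 in LNCaP, -0.51 to 0.43 in C4-2 and -0.31 to 0.25 in 22Rv1. The medians were 0.007, -0.003 and -0.001, beside -0.002, -0.006 and 0.0008 for libraries of other numbers. Of 18 libraries per line, 7, 8 and 9 correlated best with their own number. Without the 5 libraries that earlier results describe as standing apart (C4-2 vehicle 1, C4-2 E2 3, 22Rv1 vehicle 3, 22Rv1 Enza 3 and 22Rv1 OSU with Enza 2), the counts were 4 for Enza, 1 for E2 and Enza against Enza and 2 for the interaction in 22Rv1, 1 for the E2 and 0 for the Enza response of C4-2 minus LNCaP. In vehicle cells TOP2A in C4-2 against LNCaP changed sign to -0.12 with total reads, -0.13 with protein-coding reads and -0.18 with loess, and in 22Rv1 against C4-2 it was 0.0245 with loess, while FOXM1 in 22Rv1 against C4-2 was 0.0759 with total reads and 0.10 with loess.

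Leaving out 1 library at a time gave, for E2, 10 to 15 in LNCaP and 9 to 18 in 22Rv1, and for Enza 2 to 8 in LNCaP, 1 to 3 in C4-2 and 0 to 1 in 22Rv1. For E2 and Enza the counts were 1 to 5 in LNCaP and 4 to 21 in 22Rv1 against vehicle, and 3 to 5 in LNCaP, 0 to 3 in C4-2 and 0 to 6 in 22Rv1 against Enza. The interaction gave 2 to 10 in LNCaP and 0 to 2 in C4-2. The E2 response gave 2 to 13 (C4-2 minus LNCaP), 1 to 6 (22Rv1 minus LNCaP) and 20 to 27 (22Rv1 minus C4-2), and the Enza response 0 to 2 (C4-2 minus LNCaP) and 2 to 16 (22Rv1 minus C4-2). OSU and Enza against Enza, averaged over the lines, gave 0 to 1. The vehicle contrasts gave 30 to 33 for C4-2 against LNCaP, 33 to 36 for 22Rv1 against LNCaP and 38 for 22Rv1 against C4-2.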
